A study of Homo sapiens with 9 samples.

Results

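The genes examined encode potassium channel subunits and the proteins that bind them, taken as every gene whose symbol in the deposited table begins with KCN and holds no hyphen. There were 70 such genes among 25084 in the table. They were followed in LAN5, an established human neuroblastoma cell line with an amplified MYCN gene, across 9 RNA-sequencing libraries of total RNA. The 3 groups of 3 libraries were cells that received the siRNA named siCTR as a control, the siRNA named siMYCN_2 against MYCN (siMYCN) or the siRNA named siHAND2_3 against HAND2 (siHAND2). In each group the siRNA was put into the cells by nucleofection, an electroporation method, and RNA was taken 72 h later. One siRNA served for each target and all libraries came from a single cell line. Nothing in the labels says that the replicates were separate cultures, so the p-values measure only the spread between these libraries, which may be technical.

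Potassium channels let potassium ions leave the cell and so pull the membrane potential down. In sympathetic neurons, the lineage from which neuroblastoma arises, voltage-gated channels end each action potential, leak channels set the resting potential, and the slow M-current of KCNQ subunits holds back repeated firing. Many of the channels are built from 4 pore-forming subunits, and auxiliary or electrically silent subunits change where and how they open. MYCN and HAND2 encode helix-loop-helix transcription factors, which bind DNA at short motifs called E-boxes.

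Values are CPM, the reads of a gene scaled to the same total in each library. A library held 21.1 M to 32.7 M assigned reads as judged from the smallest step between low values, which puts the counting error of a gene at 1 CPM between 17.5% and 21.8% of its value. MYCN itself stood at 70.0% of its siCTR mean in siMYCN and at 49.6% in siHAND2. HAND2 stood at 54.2% in siHAND2 and at 114% in siMYCN. All 8 noradrenergic neuroblastoma markers found in the table, of 9 listed, passed the filter described next, and their summed level spanned 1224 to 1347 CPM under siCTR, 1682 to 1758 under siMYCN and 1256 to 1399 under siHAND2. The summed level of the noradrenergic markers was thus highest in siMYCN, and single markers were not compared. Over all 9 libraries the summed markers of Schwann cells (4 of 4 in the table) reached at most 2.68 CPM, those of endothelium (3 of 3) 1.19 CPM, of immune cells (2 of 3) 0.655 CPM, of epithelium (2 of 3) 3.99 CPM and of muscle (1 of 4) 0.262 CPM. The 2 melanocyte markers found, of 3 listed, summed to 26.3 to 29.9 CPM under siCTR, 35.2 to 38.2 under siMYCN and 18.2 to 19.9 under siHAND2. Of these 2, 1 stayed under 1 CPM in every library, so the sum is almost wholly that of a single gene. The part of these markers in the results below was not tested. In bulk RNA fewer cells of a type and less RNA per cell cannot be told apart.

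Of the 70 genes, 36 reached at least 1 CPM in at least 3 libraries and were tested, and 34 did not. None of the 36 passed through a single group alone, and 31 of them were at or above 1 CPM in all 9 libraries. Of the 34 untested genes, 31 stayed under 1 CPM in every library and the highest mean among the 34 was 0.878 CPM. KCNQ1, a cardiac repolarization channel, was among them with a mean of 0.0476 CPM in siCTR, as was KCNN3, a small-conductance calcium-activated channel, with 0.232 CPM. KCNJ11, the pore of the ATP-sensitive channel of beta cells, measured 0.581, 0.524 and 0.569 CPM under siCTR, 0.725, 0.537 and 0.754 under siMYCN and 0.888, 0.797 and 0.815 under siHAND2. Its siHAND2 libraries all lay above the other 6, at a level too low for the test. By class, 13 of 31 voltage-gated pore subunits, 4 of 7 calcium- or sodium-activated pore subunits, 4 of 9 inward rectifiers, 6 of 11 tandem-pore-domain leak channels and 7 of 10 auxiliary subunits were tested. The other 2 members, the noncoding KCNQ1OT1 and the channel regulator KCNRG, were tested as well.

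Levels of different genes were compared as CPM per kb of the canonical transcript. Among the members described here, KCNG1, a silent subunit, had the highest level in siCTR at 17.6 ± 1.18 CPM per kb (SD, n = 3), and its 3 libraries lay apart from those of the next gene. KCNH2, KCNN2, KCNMB3, KCNMB4 and KCNQ5 came next, with means of 6.42 to 7.36 CPM per kb. Each of these overlapped its neighbour in the order, and the KCNH2 libraries (7.15 to 7.71) lay above those of KCNMB4 and KCNQ5. KCNK2 (5.33 ± 0.262) and KCNK3 (3.89 ± 0.0971), both leak channels, followed. KCNIP3, a calcium-binding partner of A-type channels, was the lowest tested member at 0.192 ± 0.0104 CPM per kb. The 70 genes together drew 0.0693% of all reads in siCTR, 0.0753% in siMYCN and 0.0667% in siHAND2.

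**Figure D1:**
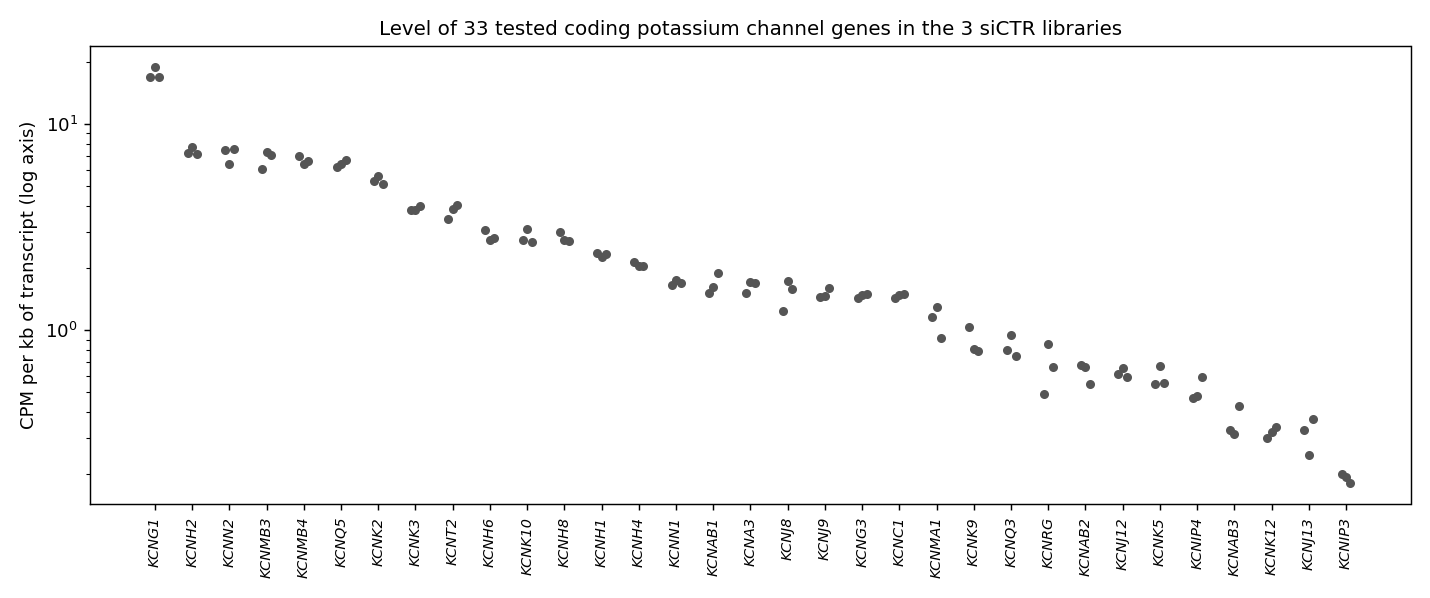
Level of 33 tested protein-coding potassium channel genes in siCTR, as CPM per kb of canonical transcript on a log axis, with 1 point per library. KCNG1 stands above the other genes plotted, and neighbours further down mostly overlap.

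Differences between groups were tested on log2(CPM + 1) with limma over all 14495 genes that passed the filter, with Benjamini-Hochberg adjusted p-values and a threshold of 0.05. A gene past it is said to have risen or fallen. In siMYCN against siCTR there was a rise of 8 and a fall of 5 of the 36 tested potassium channel genes. These 13 are 36.1% of the members tested, where 35.9% of all genes passed (24.5% higher and 11.4% lower), so the members were called about as often as genes in general. The median log2 fold change over the 36 was 0.02, against 0.06 over all genes tested. In siHAND2, where MYCN was lower than in siMYCN (49.6% and 70.0% of siCTR) as well as HAND2, there was a rise of 10 and a fall of 7, 17 genes or 47.2%, where 29.9% of all genes passed (18.1% higher and 11.8% lower), with medians of 0.04 over the members and 0.04 over all genes. Between the knockdowns 5 members were higher and 10 lower in siHAND2 than in siMYCN, 15 genes or 41.7%, where 26.9% of all genes passed (11.4% higher and 15.5% lower). The comparisons with siCTR share their control libraries, and each comparison's own values are given for the genes described below. In all, 24 members passed in at least 1 comparison and 12 in none. The share of all genes passing in at least 1 comparison was not computed, so these counts stand without a reference. The balance of rises and falls moved with the scaling: the share of rises among called members was 61.5% in siMYCN on the deposited scale, 50% when rescaled by median ratios and 46.2% when quantile normalized, and for siHAND2 against siMYCN it was 33.3%, 40.0% and 43.8%.

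**Figure D2:**
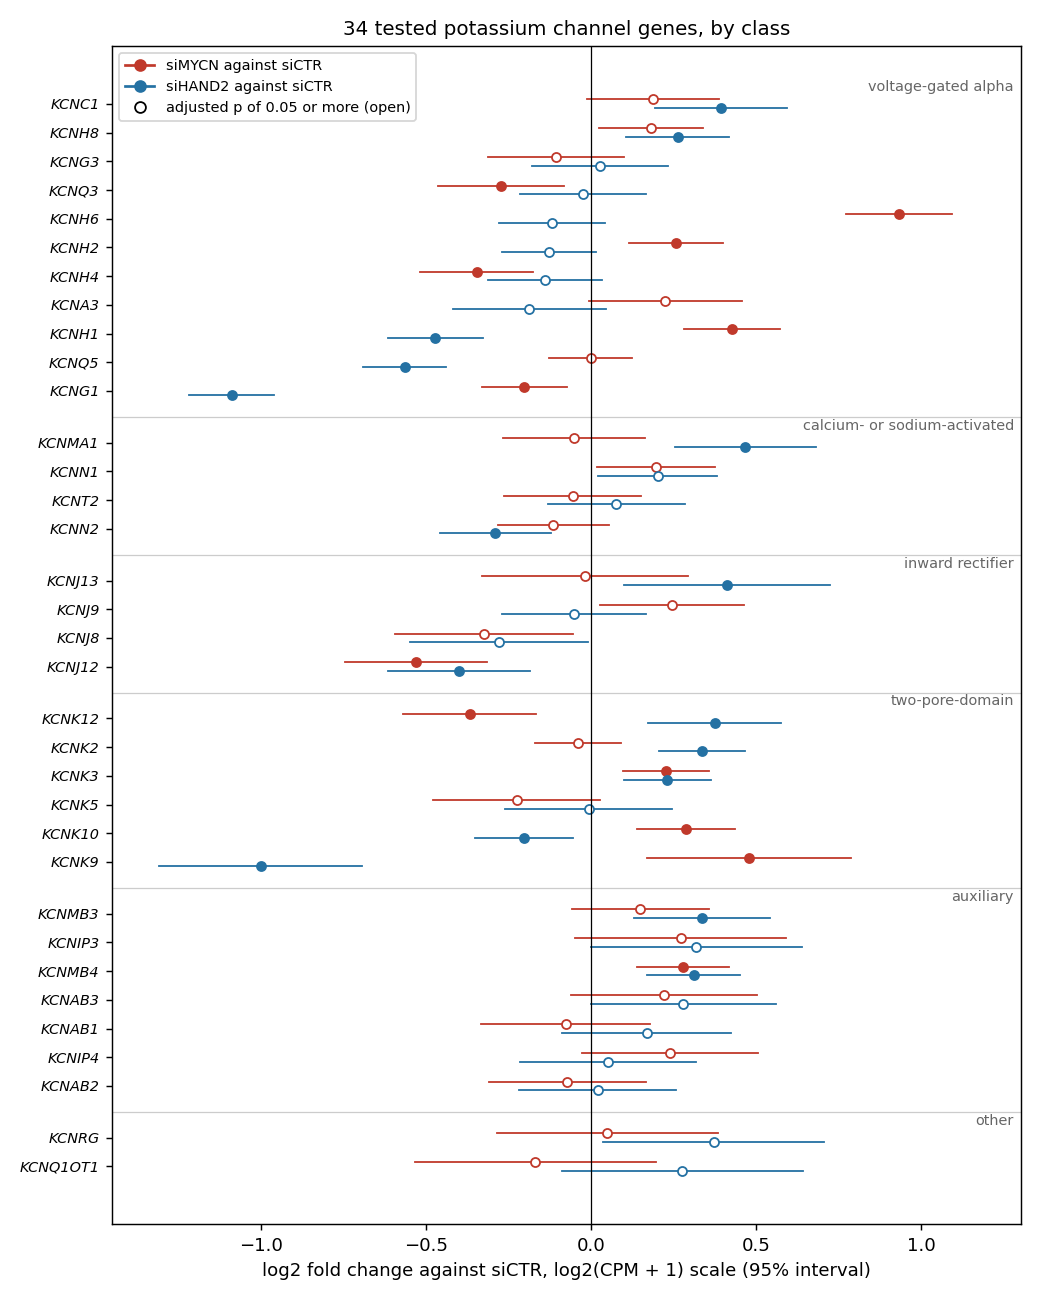
Log2 fold change against siCTR of 34 of the tested potassium channel genes with the 95% interval of limma, siMYCN in red and siHAND2 in blue, filled where the adjusted p was under 0.05. KCNH6 has the highest value in siMYCN (0.93) and KCNG1 and KCNK9 the lowest in siHAND2 (-1.09 and -1.0), while KCNH1, KCNK9, KCNK10 and KCNK12 have called values on opposite sides of 0.

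The ether-a-go-go family (KCNH), voltage-gated channels that include a cardiac repolarization channel, held the largest change of a potassium channel gene in siMYCN. Of its 5 tested members KCNH6, KCNH1 and KCNH2 rose there, KCNH4 fell and KCNH8 did not pass, where 35.9% of all genes passed. In siHAND2 KCNH1 fell and KCNH8 rose, where 29.9% of all genes passed. The sequence before the start of the 4 genes that changed in siMYCN is given to show which E-boxes lie there. Each line holds the 250 bases before the gene's start from RefSeq (GRCh38.p14), 5′ to 3′ on the strand of the gene, and capitals mark every CANNTG, the general E-box.
KCNH1, chr1:211134149-211134398, minus strand: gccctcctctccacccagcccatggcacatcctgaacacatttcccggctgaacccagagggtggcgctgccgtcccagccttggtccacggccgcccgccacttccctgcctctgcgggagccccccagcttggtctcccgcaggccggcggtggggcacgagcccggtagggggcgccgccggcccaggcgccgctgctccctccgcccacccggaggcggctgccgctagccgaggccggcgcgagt
KCNH2, chr7:150978322-150978571, minus strand: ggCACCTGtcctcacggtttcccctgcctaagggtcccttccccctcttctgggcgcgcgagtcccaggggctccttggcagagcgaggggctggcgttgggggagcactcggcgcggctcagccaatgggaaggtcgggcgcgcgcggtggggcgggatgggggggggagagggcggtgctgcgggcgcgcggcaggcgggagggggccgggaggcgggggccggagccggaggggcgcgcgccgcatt
KCNH4, chr17:42181143-42181392, minus strand: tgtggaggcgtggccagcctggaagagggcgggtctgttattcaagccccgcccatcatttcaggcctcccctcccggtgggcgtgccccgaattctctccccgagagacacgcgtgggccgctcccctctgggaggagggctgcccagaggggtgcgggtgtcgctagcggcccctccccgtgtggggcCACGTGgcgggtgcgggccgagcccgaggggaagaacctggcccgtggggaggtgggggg
KCNH6, chr17:63523108-63523357, plus strand: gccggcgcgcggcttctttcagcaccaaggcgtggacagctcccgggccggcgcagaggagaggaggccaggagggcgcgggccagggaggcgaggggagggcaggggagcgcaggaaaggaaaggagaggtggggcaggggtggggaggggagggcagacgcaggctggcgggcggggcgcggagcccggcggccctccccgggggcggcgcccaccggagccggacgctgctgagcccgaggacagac
The windows of KCNH1 and KCNH6 hold no CANNTG, that of KCNH2 holds 1 (CACCTG) and that of KCNH4 holds 1 (CACGTG, the form bound by MYC proteins). CANNTG reads the same on both strands and covers CACGTG. Of 35116 RefSeq windows of this length, 61.8% held CANNTG and 6.3% held CACGTG. A gene can have several of these windows (5 for KCNH2), while each member below is counted with 1, so the shares have unlike units. Among the 25 tested members with an entry, which were matched by symbol and taken at the start nearest to that in the deposited table, 10 held CANNTG (40.0%), 1 held CACGTG (KCNH4), and 3 held TATAAA or its reverse complement (12%, against 10.7% of all windows). For 14 of these 25 the entry lay within 50 bases of the start in the deposited table, and 6 of the 14 held CANNTG (42.9%). For the others the entry lay further off, 306144 bases away for KCNN2. A match describes letters in this window and not a bound site.

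KCNH6 (chromosome 17, 63523334 to 63548977, a position that, like all those below, is read as GRCh38), an erg-type channel, measured 11.6, 10.3 and 10.5 CPM under siCTR, 21.3, 21.7 and 21.5 under siMYCN and 11, 9.37 and 9.28 under siHAND2. The siMYCN libraries lay well above all others, and siCTR and siHAND2 overlapped. It rose by 0.93 on the log2(CPM + 1) scale in siMYCN (standard error 0.08, adjusted p = 1.84e-07), to 199% of the siCTR mean, and its value in siHAND2 was -0.12 (adjusted p = 0.255). KCNH1 (chromosome 1, 210676823 to 211134165), the founding ether-a-go-go channel of the family, measured 19.2, 18.4 and 19.1 CPM under siCTR, 23.6, 27.8 and 26.1 under siMYCN and 13.1, 14.1 and 12.9 under siHAND2. Its 3 groups did not overlap, with siMYCN highest and siHAND2 lowest. KCNH1 rose by 0.43 in siMYCN (standard error 0.07, adjusted p = 0.000154) and fell by 0.47 in siHAND2 (standard error 0.07, adjusted p = 6.55e-05), and siHAND2 stood at 51.8% of siMYCN (-0.90, adjusted p = 3.59e-08).

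KCNH2 (chromosome 7, 150944961 to 150978321), the hERG channel that repolarizes heart muscle, measured 30.9, 33.1 and 30.7 CPM under siCTR, 40.8, 35.6 and 37.5 under siMYCN and 31.3, 29.0 and 26.3 under siHAND2. The siMYCN libraries were above the other 6. The rise in siMYCN was 0.26 (standard error 0.07, adjusted p = 0.00724), the value in siHAND2 was -0.13 (adjusted p = 0.169), and siHAND2 was below siMYCN by -0.38 (adjusted p = 0.000403). KCNH4 (chromosome 17, 42156891 to 42181142), an elk-type channel, measured 8.13, 7.75 and 7.78 CPM under siCTR, 6.56, 5.68 and 5.76 under siMYCN and 6.94, 6.97 and 7.30 under siHAND2. All siMYCN libraries were lowest, siCTR was highest and siHAND2 lay between. It fell by 0.35 in siMYCN (standard error 0.08, adjusted p = 0.00338), and the value in siHAND2 was -0.14 (adjusted p = 0.214). KCNH8, another elk-type channel, had means of 14.3 ± 0.874 CPM under siCTR, 16.3 ± 1.32 CPM under siMYCN and 17.3 ± 0.926 CPM under siHAND2. It passed in siHAND2 (0.26, adjusted p = 0.0134) and not in siMYCN (0.18, adjusted p = 0.0668), and the siHAND2 call was lost without siCTR replicate 2 (0.24, adjusted p = 0.0549).

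**Figure D3:**
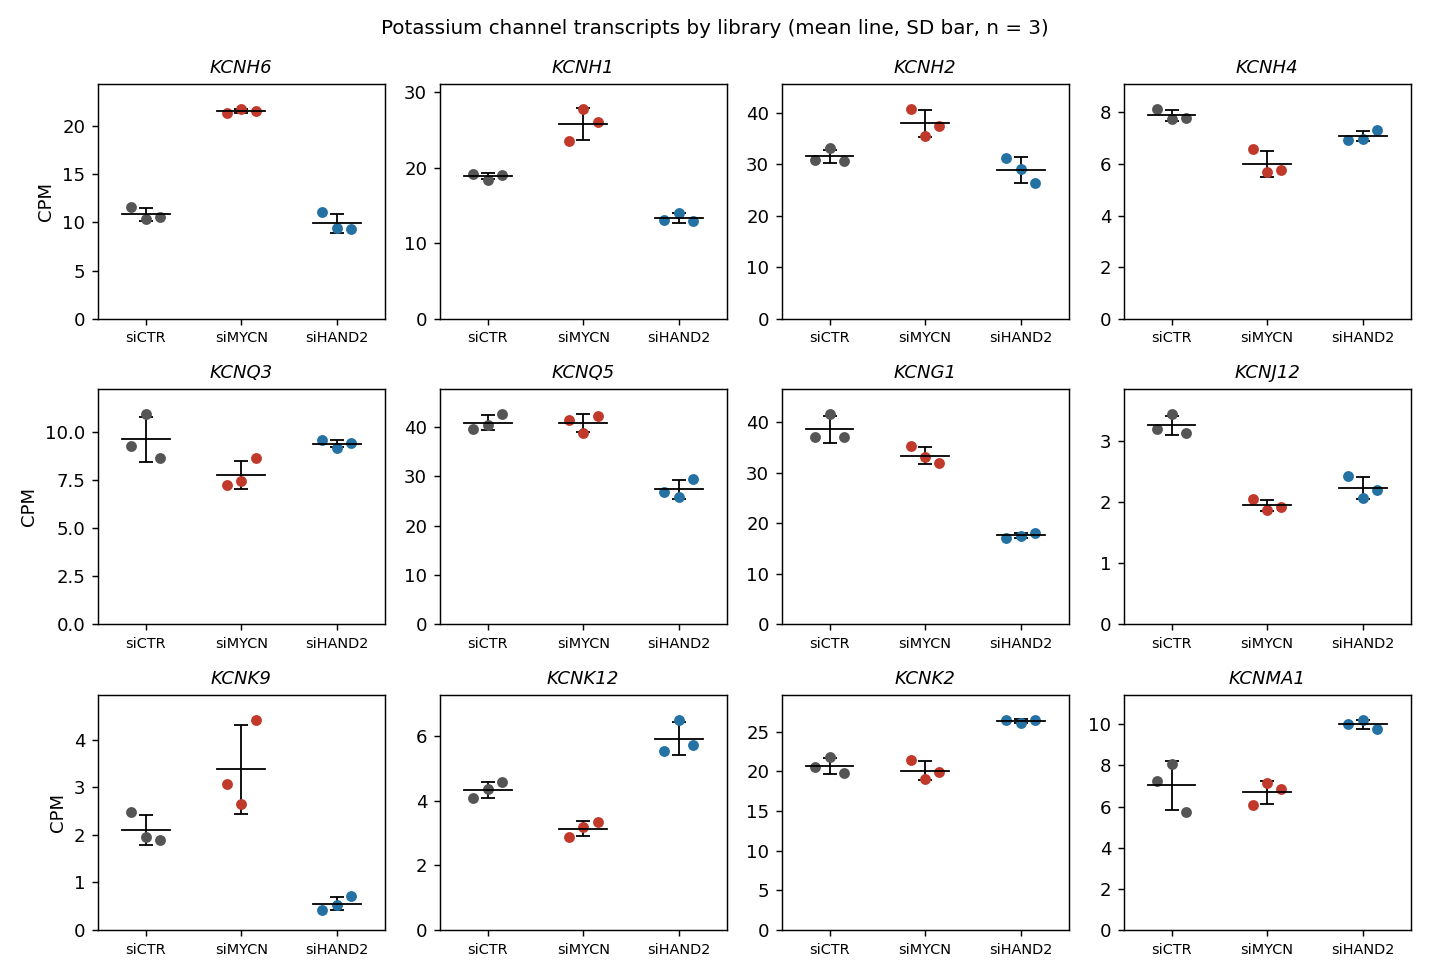
CPM of 12 potassium channel genes in each library, with a line for the mean and a bar for the SD of 3 libraries, each panel on its own linear axis from 0. KCNH6 is set apart in siMYCN (21.3 to 21.7 CPM), KCNG1, KCNQ5 and KCNK9 are low in siHAND2, and KCNK12, KCNK2 and KCNMA1 are high there.

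KCNQ5 and KCNQ3, subunits of M-like channels, moved in different groups. KCNQ5 (chromosome 6, 72621792 to 73198851) measured 39.5, 40.5 and 42.6 CPM under siCTR, 41.4, 38.8 and 42.3 under siMYCN and 26.8, 25.8 and 29.5 under siHAND2. The siHAND2 libraries were low, and siCTR and siMYCN overlapped. It fell by 0.56 in siHAND2 (standard error 0.06, adjusted p = 1.97e-06), to 66.9% of siCTR, and its value in siMYCN was -0.002 with a 95% interval of -0.13 to 0.12 (adjusted p = 0.987). KCNQ3 (9.62 ± 1.17 CPM under siCTR, 7.77 ± 0.752 under siMYCN and 9.40 ± 0.186 under siHAND2) passed as lower in siMYCN (-0.27, adjusted p = 0.026). The KCNQ3 call was lost with no filter on low values and without siCTR replicate 2 (-0.19), siMYCN replicate 1 (-0.23) or siMYCN replicate 2 (-0.25).

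KCNG1 and KCNG3 encode silent subunits that make no channel alone and join delayed rectifier subunits. KCNG1 (chromosome 20, 51003656 to 51023107) measured 37, 41.5 and 37.1 CPM under siCTR, 35.2, 33.0 and 31.8 under siMYCN and 17.1, 17.5 and 18.1 under siHAND2. The siHAND2 libraries were far below all others. It fell by 1.09 in siHAND2 (standard error 0.06, adjusted p = 1.39e-09), to 45.6% of siCTR. Its smaller siMYCN fall (-0.20, adjusted p = 0.0164) did not pass without siCTR replicate 2 (-0.15, adjusted p = 0.107) or siMYCN replicate 3 (-0.17, adjusted p = 0.079). KCNG3 stayed within its spread, with 5.45 ± 0.118, 5.00 ± 0.462 and 5.59 ± 0.684 CPM under siCTR, siMYCN and siHAND2. Among the remaining voltage-gated members, KCNC1, a channel of fast-firing neurons, measured 6.14, 6.40 and 6.45 CPM under siCTR, 7.61, 6.86 and 7.61 under siMYCN and 9.08, 9.68 and 7.30 under siHAND2. Both knockdown groups lay above siCTR, and it passed in siHAND2 (0.39, adjusted p = 0.0049) and not in siMYCN (0.19, adjusted p = 0.135). KCNA3, known from lymphocytes, passed only between the knockdowns, with 3.44 ± 0.374 CPM under siHAND2 and 4.92 ± 0.738 CPM under siMYCN (-0.41, adjusted p = 0.01), a call that was lost without siMYCN replicate 3 (-0.33).

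Ratios of related subunits within a library do not depend on the scaling of the libraries. The 2 pairs below were chosen after their values were seen and are given without a test. KCNH6 over KCNH2 was 0.374, 0.312 and 0.343 under siCTR, 0.521, 0.611 and 0.574 under siMYCN and 0.352, 0.323 and 0.353 under siHAND2. The siMYCN libraries lay above the other 6. KCNK9 over KCNK3, the acid-sensitive leak channels described next, was 0.105, 0.0819 and 0.0766 under siCTR, 0.107, 0.10 and 0.147 under siMYCN and 0.0146, 0.0176 and 0.0265 under siHAND2. The siHAND2 libraries were the lowest, and siCTR and siMYCN overlapped.

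**Figure D4:**
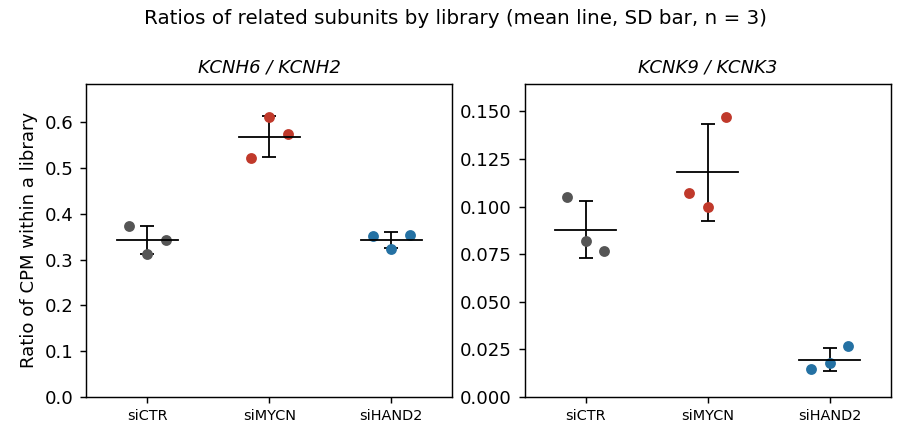
Ratio of the CPM of related subunits within each library, with a line for the mean and a bar for the SD of 3 libraries, each panel on its own linear axis from 0. KCNH6 over KCNH2 is highest in siMYCN (0.521 to 0.611), and KCNK9 over KCNK3 is lowest in siHAND2 (0.0146 to 0.0265).

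The tandem-pore-domain genes (KCNK) encode leak channels that hold the resting potential, and 5 of their 6 tested members changed in siHAND2 and 4 in siMYCN, where 29.9% and 35.9% of all genes passed. KCNK9 (chromosome 8, 139600838 to 139704109), an acid-sensitive channel, measured 2.48, 1.95 and 1.90 CPM under siCTR, 3.06, 2.65 and 4.42 under siMYCN and 0.428, 0.518 and 0.709 under siHAND2. Its 3 groups did not overlap, with siHAND2 lowest and siMYCN highest. In siHAND2 it fell by 1.0 on the log2(CPM + 1) scale (standard error 0.15, adjusted p = 6.92e-05), which understates a mean CPM of 26.2% of siCTR; at a pseudocount of 0.1 the value was -1.77 and at 5 it was -0.36. Its siMYCN rise (0.48, adjusted p = 0.0173) did not pass under quantile normalization (0.40), when siCTR replicate 2 (0.44) or replicate 3 (0.43) was left out, or when siMYCN replicate 3 was left out (0.31). KCNK3 (chromosome 2, 26692690 to 26733420), its acid-sensitive relative, measured 23.7, 23.8 and 24.8 CPM under siCTR, 28.6, 26.4 and 30.2 under siMYCN and 29.2, 29.4 and 26.7 under siHAND2. Both knockdown groups lay above siCTR and overlapped each other. KCNK3 rose by 0.23 in siMYCN (adjusted p = 0.00908) and by 0.23 in siHAND2 (adjusted p = 0.00965), and the first call was lost without siMYCN replicate 3 (0.18, adjusted p = 0.0553). The difference between the knockdowns was 0.004 with a 95% interval of -0.13 to 0.14.

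KCNK2 and KCNK10 are related leak channels opened by stretch and lipids. KCNK2 (chromosome 1, 215005775 to 215237093) measured 20.5, 21.7 and 19.7 CPM under siCTR, 21.4, 19.0 and 19.9 under siMYCN and 26.4, 26.0 and 26.5 under siHAND2. The siHAND2 libraries were above the overlapping others, a rise of 0.34 (standard error 0.06, adjusted p = 0.000591). KCNK10 (chromosome 14, 88180103 to 88326907) measured 20.6, 23.4 and 20.2 CPM under siCTR, 26.3, 24.8 and 27.9 under siMYCN and 17.3, 18.8 and 19.3 under siHAND2. It was highest in siMYCN and lowest in siHAND2, with a rise of 0.29 in siMYCN (adjusted p = 0.00448). Its fall of 0.20 in siHAND2 (adjusted p = 0.0382) was lost with no filter, without an intensity trend, in a fit of the 2 groups alone and without siCTR replicate 1 (-0.23), siCTR replicate 2 (-0.14), siHAND2 replicate 1 (-0.16) or siHAND2 replicate 2 (-0.21), while the difference between the knockdowns (-0.49, adjusted p = 5.54e-05) held in all of these. KCNK12 (chromosome 2, 47509290 to 47570985), which gives little current when expressed alone, measured 4.07, 4.35 and 4.58 CPM under siCTR, 2.88, 3.19 and 3.33 under siMYCN and 5.53, 6.5 and 5.73 under siHAND2. This is the reverse order of KCNK9 and KCNK10, with a fall of 0.37 in siMYCN (adjusted p = 0.00648) and a rise of 0.37 in siHAND2 (adjusted p = 0.00682). KCNK5, an alkaline-activated channel, passed in no comparison (2.24 ± 0.267, 1.77 ± 0.179 and 2.23 ± 0.389 CPM under siCTR, siMYCN and siHAND2).

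Of the 4 tested calcium- and sodium-activated channels none passed in siMYCN, where 35.9% of all genes passed. KCNMA1 and KCNN2 changed in siHAND2, where 29.9% of all genes passed. KCNMA1 (chromosome 10, 76869601 to 77638369), the pore of the large-conductance BK channel, measured 7.24, 8.09 and 5.74 CPM under siCTR, 6.08, 7.17 and 6.85 under siMYCN and 10.0, 10.2 and 9.77 under siHAND2. The siHAND2 libraries lay above the other 6. It rose by 0.47 in siHAND2 (standard error 0.10, adjusted p = 0.00234), and its value in siMYCN was -0.05 (adjusted p = 0.735). Of the 7 tested auxiliary members, the BK beta subunits KCNMB4 and KCNMB3 were the only ones that passed. KCNMB4 passed in siMYCN (1 of 7, 14.3%) and both passed in siHAND2 (2 of 7, 28.6%). The shares of all genes were 35.9% and 29.9%. Between the knockdowns 0 of the 7 passed, where 26.9% of all genes did. KCNMB4 (chromosome 12, 70366290 to 70434292), the neuronal beta subunit, measured 32.9, 30.3 and 31.2 CPM under siCTR, 39.5, 34.9 and 40.8 under siMYCN and 42.3, 36.7 and 38.9 under siHAND2. Both knockdown groups were above siCTR, with 0.28 for siMYCN (adjusted p = 0.00374) and 0.31 for siHAND2 (adjusted p = 0.00205). KCNMB3 measured 6.57, 7.93 and 7.69 CPM under siCTR, 7.55, 8.86 and 8.51 under siMYCN and 8.27, 10.2 and 10.4 under siHAND2. It passed in siHAND2 (0.34, adjusted p = 0.016), a call that was lost without siCTR replicate 1 (0.26), siHAND2 replicate 2 (0.29) or siHAND2 replicate 3 (0.28). KCNN2 (chromosome 5, 114055926 to 114496500), a small-conductance SK channel of the afterhyperpolarization, measured 20.7, 17.7 and 21.0 CPM under siCTR, 20.4, 17.6 and 16.7 under siMYCN and 16.2, 16.2 and 15.6 under siHAND2. It was lowest in siHAND2 (-0.29, adjusted p = 0.0114), and the call was lost without siCTR replicate 1 (-0.26, adjusted p = 0.0541). KCNN1, the related SK channel, had 6.12 ± 0.164 CPM under siCTR, 7.17 ± 0.466 under siMYCN and 7.20 ± 0.587 under siHAND2, and passed in neither (adjusted p = 0.0823 and 0.0848). KCNT2, a sodium-activated channel, varied from 19.6 to 27.8 CPM over the 9 libraries with overlapping groups.

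Inward rectifiers (KCNJ) pass potassium more readily into the cell than out of it. KCNJ12 (chromosome 17, 21376357 to 21419870), a strong rectifier, measured 3.21, 3.44 and 3.13 CPM under siCTR, 2.05, 1.88 and 1.92 under siMYCN and 2.43, 2.07 and 2.20 under siHAND2. Both knockdown groups were below siCTR, and siMYCN was the lower. It fell by 0.53 in siMYCN (standard error 0.10, adjusted p = 0.000732) and by 0.40 in siHAND2 (adjusted p = 0.00708), and at a pseudocount of 5 these values were -0.25 and -0.19. KCNJ12 has a near-identical copy in the genome, KCNJ18, so the origin of its reads is uncertain. KCNJ13, known from the retinal pigment epithelium, measured 1.18, 0.898 and 1.34 CPM under siCTR, 0.877, 1.05 and 1.41 under siMYCN and 1.40, 2.38 and 1.80 under siHAND2. Its call in siHAND2 (0.41, adjusted p = 0.0442) was lost in 9 of 17 alternatives, to 0.29 (adjusted p = 0.208) without siHAND2 replicate 2. KCNJ13 also passed as higher in siHAND2 than in siMYCN (0.43, adjusted p = 0.0394), with overlapping libraries. That call was lost in 6 of 17 alternatives. KCNJ8, the pore of vascular ATP-sensitive channels, had 3.45 ± 0.575 CPM under siCTR, 2.55 ± 0.424 under siMYCN and 2.66 ± 0.358 under siHAND2 and passed nowhere. KCNJ9, a G-protein-gated channel, passed only between the knockdowns (7.73 ± 1.34 CPM under siMYCN and 6.05 ± 0.148 under siHAND2, -0.30, adjusted p = 0.0415), a call lost in 12 of 18 alternatives, with -0.20 (adjusted p = 0.202) when siMYCN replicate 1 was left out.

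The auxiliary subunits KCNAB1, KCNAB2 and KCNAB3, which bind voltage-gated channels in the cytoplasm, and the calcium sensors KCNIP3 and KCNIP4 passed in no comparison, with log2 fold changes between -0.08 and 0.32 against siCTR. KCNRG, a regulator of channel assembly, did not pass either (0.894 ± 0.244, 0.967 ± 0.316 and 1.46 ± 0.369 CPM under siCTR, siMYCN and siHAND2). KCNQ1OT1 (chromosome 11, 2608328 to 2699994), an imprinted noncoding RNA transcribed against KCNQ1, measured 26.8, 32.6 and 36.8 CPM under siCTR, 20.5, 31.7 and 34.4 under siMYCN and 29.1, 42.0 and 47.5 under siHAND2. The groups overlapped, and in each of them the values rose with the replicate number. Within each number siMYCN was lowest and siHAND2 highest. The KCNQ1OT1 value was -0.17 in siMYCN (adjusted p = 0.478) and 0.28 in siHAND2 (adjusted p = 0.248) in the fit that ignores replicate number. With replicate number as a block, a pairing that the labels do not state, KCNQ1OT1 passed in all comparisons, as given in the closing section.

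How strand was used in counting is not given in the sources used here, and 15 of the 36 tested members overlap a gene on the other strand. KCNJ13 lies within GIGYF2 (mean 103 CPM), whose log2 fold changes were 0.07 in siMYCN and 0.02 in siHAND2. KCNC1 overlaps SERGEF (9.67 CPM), with -0.09 in siMYCN and -0.29 in siHAND2. KCNRG overlaps the noncoding DLEU2 (16.6 CPM), with 0.17 in siMYCN and 0.33 in siHAND2, beside 0.05 and 0.37 for KCNRG itself. It also overlaps TRIM13 on its own strand (108 CPM), with 0.098 in siMYCN and 0.28 in siHAND2. The part of overlapping reads was not tested.

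Partner proteins outside the KCN symbols were taken from a list of 32 genes, of which 27 were in the table and 21 were tested: pump subunits, potassium cotransporters, hyperpolarization-gated channels, channel partners and volume-regulated channel subunits. Of the 21, 10 rose and 3 fell in siMYCN (median 0.17, against 0.06 over all genes), where 24.5% of all genes were higher and 11.4% lower. In siHAND2 4 rose and 5 fell (median -0.10, against 0.04), where 18.1% of all genes were higher and 11.8% lower. The siHAND2 count was 5 without siCTR replicate 1 or siHAND2 replicate 2. The sodium-potassium pump builds the gradient the channels use. Its beta subunit ATP1B1 measured 97.0, 98.6 and 83.2 CPM under siCTR, 131, 131 and 141 under siMYCN and 83.6, 74.8 and 83.1 under siHAND2. The siMYCN libraries lay above all others, and siCTR and siHAND2 overlapped. ATP1B1 rose by 0.53 in siMYCN (standard error 0.06, adjusted p = 7.35e-06) and passed as lower in siHAND2 (-0.20, adjusted p = 0.0211). Its siHAND2 call was lost with no intensity trend (adjusted p = 0.0749) and when siCTR replicate 1 (-0.17), siCTR replicate 2 (-0.16) or siHAND2 replicate 2 (-0.15) was left out. ATP1B3, also a beta subunit, did not pass in either (-0.12 and -0.10).

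Among the other partners LRRC8C, a subunit of volume-regulated anion channels, measured 81.6, 82.0 and 81.6 CPM under siCTR, 78.1, 81.9 and 86.4 under siMYCN and 36.6, 40.7 and 48.6 under siHAND2. It fell by 0.96 in siHAND2 (standard error 0.07, adjusted p = 6.46e-08), and siCTR and siMYCN overlapped. DPP6, which speeds A-type channels, went from 34.2 ± 2.03 CPM under siCTR to 42.1 ± 0.658 under siMYCN (0.29, adjusted p = 0.00145) and 50.2 ± 4.10 under siHAND2 (0.54, adjusted p = 5.12e-06). HCN2, a hyperpolarization-gated pacemaker channel, went from 6.45 ± 0.367 CPM to 10.0 ± 1.67 under siMYCN (0.55, adjusted p = 0.000559) and measured 5.32 ± 0.228 under siHAND2 (-0.24, adjusted p = 0.0957). HCN3, LRRC8A and the cotransporters SLC12A4 and SLC12A7 also passed as higher in siMYCN, and AMIGO1, SLC12A2 and TMEM38B as lower. Of 18 alternatives, 8 lost the call of SLC12A7, 6 that of LRRC8A, 6 that of AMIGO1 and 1 that of SLC12A2. The values of SLC12A7 and LRRC8A did not pass under either rescaling. In siHAND2 LRRC8B and SLC12A4 also passed as higher and TMEM38B as lower, and these calls were lost in 5, 6 and 1 of 18 alternatives.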

How the data were processed

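The deposited table gave CPM, computed by the authors, for 25084 genes in 9 libraries, with a constant of 0.0001 in every value, which was subtracted. STAR 2.5.1 and Partek are named in the submitters' processing notes; the counting rule and use of strand are not given in the sources used here. The notes name hg19 and GRCh37, but 91.4% of 18215 gene starts matched by symbol lay within 5000 bp of those in GRCh38 and 5.6% of 18619 within that of GRCh37, so coordinates are given as in the table and read as GRCh38.

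Among low values (up to 20 steps), 74.3% to 81.5% came out whole within 0.02 of a step, so no count model was used. log2(CPM + 1) of genes reaching 1 CPM or more in 3 libraries or more was fitted with limma 3.58.1 in R 4.3.3 (1 mean per group, all 9 libraries, eBayes with intensity trend), two-sided, with Benjamini-Hochberg adjustment over 14495 genes. The code was tested on simulated data. Transcript lengths (GENCODE canonical transcripts) were matched by symbol for 70 members; KCNQ1OT1 was left out of the order of levels. Single genes were named by rule: 14 preset members, up to 8 largest called rises and falls per comparison with groups apart, the 10 highest in CPM and called partners; KCNH8, KCNJ9 and the uncalled members given were chosen after their values were seen. Some genes in the counts are not reported here. Members and lists were chosen with earlier results of these data known. Alternatives were pseudocounts of 0.1 and 5, no filter, a filter of 5 CPM, 2 rescalings, fits of 2 groups, no intensity trend, a replicate block and each library left out.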

Additional observations from a re-analysis of the deposited data

How the results depend on the processing

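With 9 other settings and 9 fits that each left out 1 library, no call of a gene followed singly changed sign, and 51 of 79 called values kept their call throughout. Over the other settings 11 to 15 potassium channel genes were called in siMYCN, 14 to 20 in siHAND2 and 13 to 17 between the knockdowns. With a library left out these counts were 10 to 14, 14 to 18 and 13 to 18. Members tested numbered 25 with the 5 CPM filter, 70 with no filter and 35 or 36 otherwise. Of all genes, 4639 to 5895, 3869 to 5089 and 3397 to 4689 were called over the other settings (11402 to 25084 tested). With a library left out 4013 to 5854, 3075 to 4290 and 2909 to 3940 were called (14373 to 14448 tested). Without siCTR replicate 2 the number lower in siMYCN went from 5 to 3, and without siHAND2 replicate 1 the number higher in siHAND2 than in siMYCN went from 5 to 9. The partner count in siHAND2 ranged from 5 to 10 with a library left out. With replicate number as a block (replicate block) the counts were 15, 20 and 17 of 36 members, beside 5895, 5089 and 4689 of 14495 genes. Same-numbered libraries correlated at -0.04 to 0.305 in their deviations from the group means, above 0.1 in 6 of 9 pairs, and different-numbered ones at -0.296 to 0.141, above 0.1 in 2 of 18, while 15 of 18 best matches had the same number. This hints at pairing, but the labels do not state it and not every same-numbered pair was above 0.1, so the fit without the block was kept. KCNQ1OT1 passed with the block in all comparisons (adjusted p = 0.0329, 0.00147 and 9.44e-06). A pseudocount of 5 lowered the siMYCN values of KCNH4 (-0.23), KCNK12 (-0.20) and KCNK9 (0.23) by over 1.5 times, and their calls held.

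Values near 0 that were not called changed sign, and the cause was not tested. With a library left out, the siMYCN value ranged from -0.12 to 0.063 for KCNJ13, -0.082 to 2.5e-05 for KCNK2, -0.17 to 0.044 for KCNMA1, -0.31 to 0.053 for KCNQ1OT1, -0.027 to 0.034 for KCNQ5, -0.12 to 0.016 for KCNT2, -0.031 to 0.041 for LRRC8C and -0.029 to 0.14 for SLC9A7. The siHAND2 value ranged from -0.090 to 0.061 for KCNQ3 and -0.028 to 0.20 for KCNT2, and that between the knockdowns from -0.044 to 0.048 for KCNK3, -0.033 to 0.079 for KCNMB4 and -0.026 to 0.041 for TMEM38B. In siMYCN, LRRC8C was -0.053 under median-ratio scaling and -0.057 under quantile scaling, and SLC9A7 was -0.012 and -0.034. Count models were not run, since too few values were whole reads.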
